A study of Homo sapiens with 12 samples.

Results

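The genes described here form the core of a glucose-sensing circuit. They are TXNIP and ARRDC4, which encode a pair of alpha-arrestins, MLXIP, which encodes the transcription factor MondoA, and MLX, which encodes its DNA-binding partner. They were picked by symbol, with earlier results of these data known, and are 4 of the 60708 genes in the count tables. The cells were wild-type HCT116, an established line from a human colon cancer, grown in RPMI1640 with fetal bovine serum. Cells received oligomycin A (OA), which blocks the ATP synthase of mitochondria, or tunicamycin (TN), an inhibitor of N-linked glycosylation that stresses the endoplasmic reticulum (ER), for 24 h. The labels give 5 µg/mL for both, whereas the study's methods give a higher OA concentration, so the OA dose is uncertain. Each stressor had 3 treated libraries and 3 DMSO libraries of its own, labelled as biological replicates, which makes 4 groups and 12 libraries from this single line.

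As background, MondoA and MLX form a heterodimer of the basic helix-loop-helix leucine zipper class. The pair is held outside the nucleus when glucose-6-phosphate is scarce, enters it when glucose-6-phosphate rises, and binds repeated E-box-like motifs called carbohydrate response elements. TXNIP and ARRDC4 are its best known direct targets. TXNIP protein binds thioredoxin and promotes removal of glucose transporters from the cell surface, and ARRDC4 protein also restrains glucose uptake, so that this circuit acts as a brake on glucose entry. Messenger RNA levels, which were measured here, report neither the location of MondoA nor the amount of any protein.

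The RNA was poor in markers of other cell types. Among epithelial markers, KRT8 was at 1626 to 2374 and EPCAM at 58.6 to 305 CPM (read counts scaled by library size), whereas the intestinal marker VIL1 did not exceed 0.290 CPM. The summed level of the 4 leukocyte markers was at most 0.713 CPM, that of the 3 endothelial markers at most 1.42 CPM, and that of the 3 fibroblast markers 1.44 to 9.40 CPM, with 4.55 or more in the OA libraries and 2.73 or less in their DMSO libraries. Library totals ran from 9884124 to 24983573 counts. Libraries also differed in how genes of low GC content stood against genes of high GC content. This GC skew is the median deviation from the group mean of the genes lowest in GC (at most 41.9%) minus that of the genes highest in GC (at least 56.1%), in log2 units. Of the TN experiment, the libraries numbered 1 stood apart, with a skew of -0.63 in the DMSO library and -1.28 in the TN library, against 0.25 to 0.64 in the other 4. In the OA experiment, the skew was 0.63 and 0.99 in the libraries numbered 1 and -0.69 and -0.97 in those numbered 2. Values without both libraries of such a number are given for ARRDC4, MLXIP, MLX, and the named genes called without pairing of libraries. This alternative was chosen after seeing the data.

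The reference promoters were searched for E-box-like motifs. The RefSeq windows of TXNIP at chr1:145996530-145996829 on the minus strand and of ARRDC4 at chr15:97960453-97960752 on the plus strand (GRCh38.p14, 250 bases before to 50 bases after the start, 5′ to 3′) are shown because these are the genes that MondoA is known to act on. Capitals mark matches to the motifs searched.
TXNIP: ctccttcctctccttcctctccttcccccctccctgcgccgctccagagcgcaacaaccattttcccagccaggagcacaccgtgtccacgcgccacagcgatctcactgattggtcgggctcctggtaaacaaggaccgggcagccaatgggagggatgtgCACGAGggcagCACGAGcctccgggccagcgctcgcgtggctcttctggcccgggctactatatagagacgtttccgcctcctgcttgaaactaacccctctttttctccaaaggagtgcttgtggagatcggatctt
ARRDC4: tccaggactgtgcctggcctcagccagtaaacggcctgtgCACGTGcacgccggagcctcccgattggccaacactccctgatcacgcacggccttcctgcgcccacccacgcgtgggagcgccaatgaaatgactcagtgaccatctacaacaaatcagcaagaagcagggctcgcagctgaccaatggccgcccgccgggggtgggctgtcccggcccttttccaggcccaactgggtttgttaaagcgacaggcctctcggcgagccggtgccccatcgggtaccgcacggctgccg
The TXNIP window holds a tandem of CACGNG motifs separated by 5 bases, the layout of a carbohydrate response element, and its first base lies 88 bases before the start. A second RefSeq window of TXNIP (chr1:145995695-145995994, minus strand) holds neither this tandem nor CACGTG. This tandem was searched on both strands and occurs in 20 of 35116 promoter windows, or 0.057%. The ARRDC4 window has no such tandem and has 1 palindromic E-box, CACGTG, at base -210 from the start. A CACGTG also lies at -50 in the MLX window (chr17:42566850-42567149, plus strand), and neither motif is in the MLXIP window (chr12:122078506-122078805, plus strand). CACGTG is common, as it occurs in 2548 windows, or 7.26%. A match describes the letters only, and a lack of one says nothing beyond this window.

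TXNIP was listed at 0 counts in each of the 12 libraries. The gene (ENSG00000265972.6) lies on chromosome 1 from 145992435 to 145996579 on the minus strand (hg38), and its canonical transcript has 8 exons and 2905 bases. With 3 counts as the floor that a count of 0 allows, its level could be up to 0.120 CPM in the deepest library and 0.304 CPM in the shallowest, or 0.0170 CPM over the 176382683 counts of all libraries. The floor covers counting error only. No fold change, test, or list of similarly behaving genes could be given for TXNIP under either stressor. Its group values were the same because nothing was counted, which is not a finding that the stressors leave TXNIP unchanged.

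A listed 0 does not by itself show that the RNA was absent. EEF1G, which encodes a translation elongation factor subunit used by every cell, was also at 0 in all 12 libraries, while EEF1A1 was at 13961 to 32118 CPM, EEF1B2 at 883 to 1763 CPM, and EEF1D at 558 to 1014 CPM. EEF1G shares 1439 of its 1446 transcript bases with another annotated gene on the same strand, and its transcript aligned to 2 places in the genome. TXNIP has neither feature in the reference used here (Gencode v44). The study's methods name an older Gencode version, while gene IDs in the counts look newer than that. The annotation used for counting may therefore differ from v44. No annotated gene overlaps TXNIP in v44, and its transcript aligned to 1 place among the 455 sequences of the genome. A neighbour on one side, POLR3GL, a subunit of RNA polymerase III located 13586 bases away, was at 5.32 to 12.5 CPM. On the other side, HJV, an iron-regulatory gene located 20888 bases away, was at 0. Of the 19942 protein-coding genes matched, 4104 were at 0 in all libraries. Why TXNIP was at 0 was not tested.

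ARRDC4, which unlike TXNIP had counts, was higher after TN than in the DMSO library of the same number in all 3 pairs, by 2.26-fold when the libraries were paired. The gene (ENSG00000140450.9, chromosome 15, 97960703 to 97973833, plus strand) has 8 exons and a canonical transcript of 4062 bases. In the DMSO libraries of the TN experiment, ARRDC4 was at 4.65, 29.7, and 28.4 CPM for replicates 1, 2, and 3. In the TN libraries, it was at 14.6, 59.0, and 57.8 CPM. Both libraries numbered 1 were low, and the low TN library lay below 2 of the DMSO libraries, so the groups overlapped. Within pairs, the TN library was 3.13-fold, 1.99-fold, and 2.04-fold above its DMSO library.

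The call for ARRDC4 depended on whether the pairs were used. Without a replicate block, the log2 fold change was 1.01 (SE 0.727, 95% confidence interval -0.685 to 2.71, n = 3), which did not pass the edgeR quasi-likelihood test (Benjamini-Hochberg adjusted p = 0.450). With the replicate number as a block, it was 1.18 (SE 0.211, 95% confidence interval 0.693 to 1.66, adjusted p = 0.00546). As a background, 6.99% of the 14432 genes tested were called for TN without the block and 27.1% with it. Same-numbered TN libraries deviated together from their group means, with correlations across genes of 0.635, 0.404, and 0.423, and were therefore taken as pairs. However, libraries 2 and 3 also deviated together across numbers (0.375 and 0.432). DMSO replicate 3 correlated slightly better with TN replicate 2 (0.432) than with TN replicate 3 (0.423). The correlations thus set apart the libraries numbered 1 but do not show which of the others belong together.

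The rise of ARRDC4 after TN was also present without the libraries that stood apart. With both libraries numbered 1 left out, the log2 fold change was 0.99 (SE 0.113, edgeR adjusted p = 7.77e-08), from 28.4 and 29.7 CPM in DMSO against 57.8 and 59.0 CPM after TN. This fit of 2 against 2 libraries called 6267 genes, against 1009 in the main TN fit. It was chosen after seeing the data and kept the libraries most alike. Their counts differed by a chi-square per gene of 7.34 (DMSO) and 6.25 (TN), against 71.0 to 111 for pairs with a library numbered 1. Its p-value is therefore no independent support for the rise. With the replicate block and an offset for GC content together, the log2 fold change was 1.28 (edgeR adjusted p = 0.000986). Leaving out 1 library at a time without the block gave log2 fold changes from 0.58, without DMSO replicate 1, to 1.47, without TN replicate 1, and none of these passed (adjusted p = 0.155 to 0.655).

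After OA, ARRDC4 differed from DMSO by less than the spread between replicates. The DMSO libraries were at 14.6, 10.0, and 12.3 CPM, and the OA libraries at 17.3, 14.8, and 11.4 CPM, so the groups overlapped and 1 of the OA libraries lay below 2 of the DMSO libraries. The log2 fold change was 0.30 (SE 0.295, 95% confidence interval -0.372 to 0.981, n = 3, edgeR adjusted p = 0.565), against a background of 4.48% of 14681 genes called for OA. The upper bound falls just short of a doubling, and a smaller rise or a small fall could not be told from no change. With both libraries numbered 2 left out, the value was 0.13 (adjusted p = 0.826), and with both numbered 1 left out, it was 0.38 (adjusted p = 0.619).

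**Figure D1:**
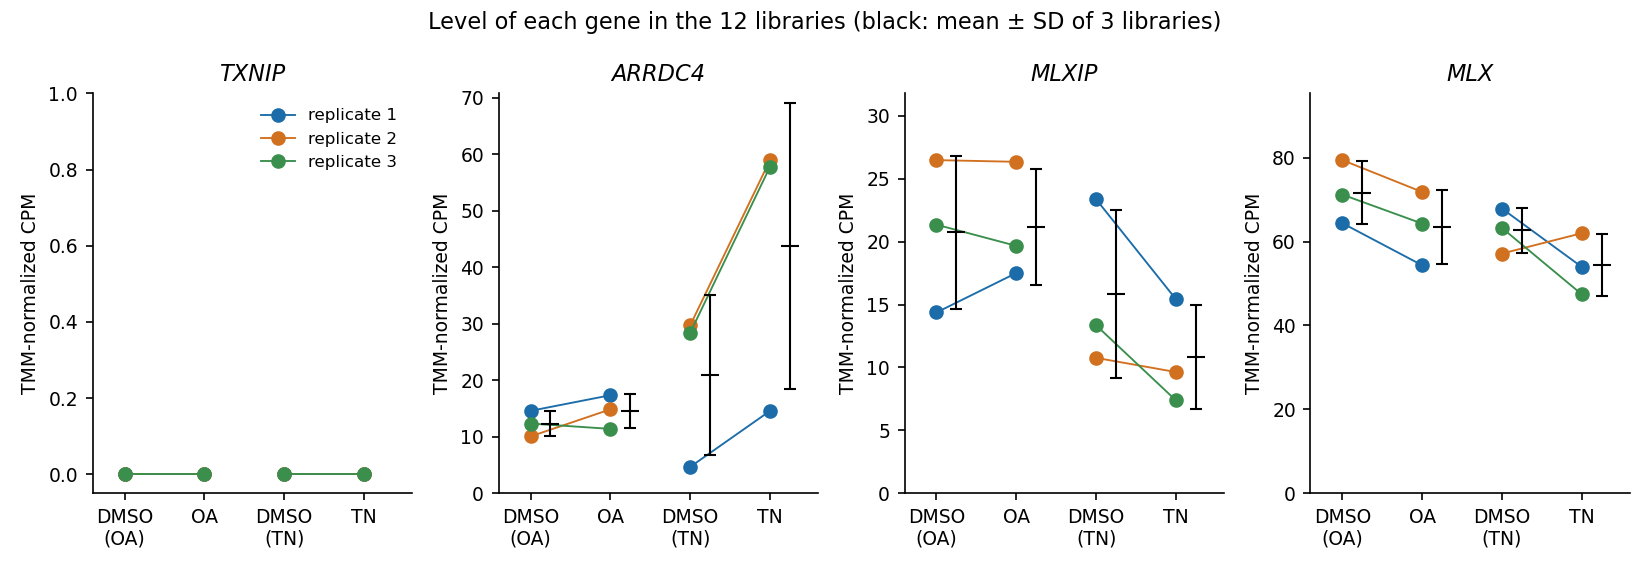
TMM-normalized CPM (y axis, linear, from 0 for the genes with counts) of TXNIP, ARRDC4, MLXIP, and MLX in the 4 groups (x axis), where points are libraries coloured by replicate number, lines join the same number within an experiment, and black marks are the mean ± SD of 3 libraries. TXNIP is at 0 in all 12 libraries, and ARRDC4 rises along each of the 3 TN lines, from 4.65, 29.7, and 28.4 to 14.6, 59.0, and 57.8 CPM.

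MLXIP, which encodes MondoA, was present in all libraries and was called changed under neither stressor in the fits without a block. The gene (ENSG00000175727.14, chromosome 12, 122078756 to 122147344, plus strand) has 17 exons in its canonical transcript of 8390 bases. In the OA experiment, the DMSO libraries were at 14.4, 26.5, and 21.3 CPM and the OA libraries at 17.5, 26.3, and 19.7 CPM. These groups overlapped almost fully, and the libraries numbered 2 were the highest of both. The log2 fold change was 0.13 (SE 0.324, 95% confidence interval -0.616 to 0.869, edgeR adjusted p = 0.841), and its sign turned under scaling to total counts (-0.12) and with the GC offset (-0.013). It was 0.10 without both libraries numbered 1 and 0.09 without both numbered 2 (adjusted p = 0.907 and 0.887).

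After TN, MLXIP was lower than its paired DMSO library in 3 of 3 pairs, but the fall passed the test in 1 setting only. The DMSO libraries were at 23.4, 10.8, and 13.3 CPM and the TN libraries at 15.4, 9.63, and 7.38 CPM. TN replicate 1 lay above 2 of the DMSO libraries, so the groups overlapped. The ratios within pairs were 0.660, 0.895, and 0.553. The log2 fold change was -0.51 without the block (SE 0.409, edgeR adjusted p = 0.497) and -0.53 with it (SE 0.211, adjusted p = 0.0985). With the block and the GC offset together, it was -0.62 (adjusted p = 0.0306), and with both libraries numbered 1 left out, it was -0.51 (adjusted p = 0.0629). The sign of the MLXIP value after TN was opposite to that of ARRDC4 in each of these settings.

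MLX, the partner of MondoA, varied least within groups of the 3 genes with counts on the log2 scale. The gene (ENSG00000108788.12, chromosome 17, 42567072 to 42573239, plus strand) has 8 exons and a canonical transcript of 2360 bases. In the OA experiment, DMSO libraries were at 64.4, 79.4, and 71.2 CPM and OA libraries at 54.3, 71.8, and 64.3 CPM, with overlapping groups. The log2 fold change was -0.09 (SE 0.245, 95% confidence interval -0.649 to 0.475, edgeR adjusted p = 0.854). In the TN experiment, DMSO libraries were at 67.8, 57.1, and 63.2 CPM and TN libraries at 53.9, 62.0, and 47.4 CPM, again with overlap. The log2 fold change was -0.20 (SE 0.200, 95% confidence interval -0.667 to 0.267, adjusted p = 0.599) and -0.21 with the replicate block (adjusted p = 0.379). Without both libraries numbered 1, MLX was at -0.15 for TN (adjusted p = 0.318) and 0.0024 for OA (adjusted p = 0.998), and at -0.16 for OA without both numbered 2 (adjusted p = 0.684). Both signs also turned when libraries were scaled to ACTB, to 0.37 for OA and 0.13 for TN, a scaling that moved the median of all genes to 0.42 and 0.30. Exons of MLX overlap those of PSMC3IP on the opposite strand by 894 bases, and because the strand setting of the counting is not given in the sources used here, reads of the 2 genes may not be fully separated.

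**Figure D2:**
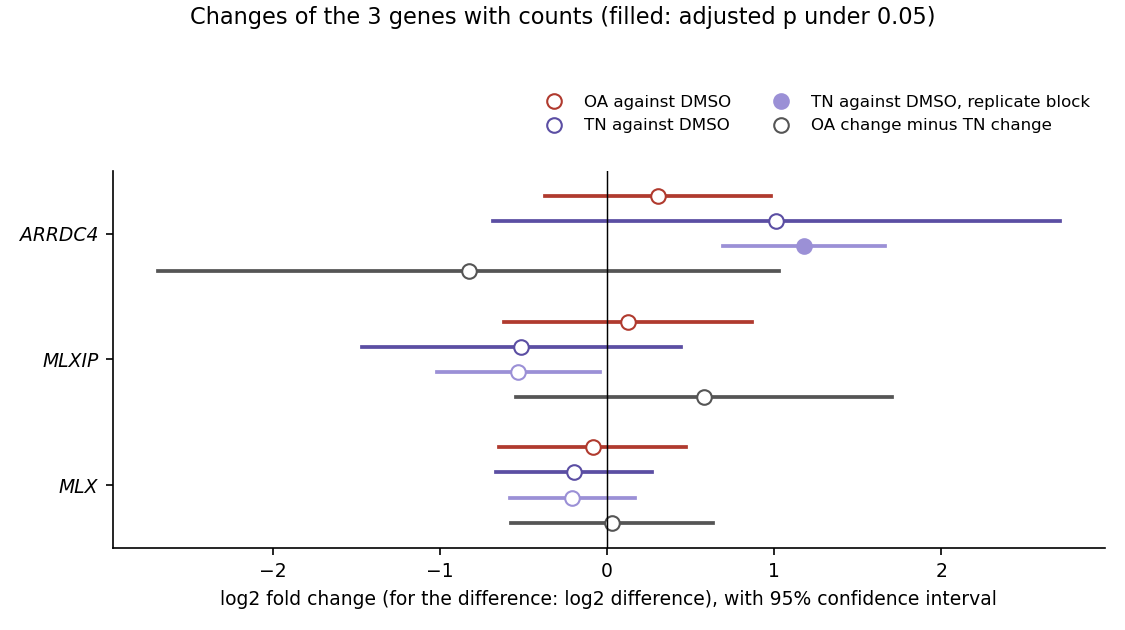
Log2 fold changes (x axis, with 95% confidence intervals as lines) of ARRDC4, MLXIP, and MLX (y axis) after OA, after TN without and with the replicate block, and the OA change minus the TN change, with filled points for an adjusted p under 0.05. The single filled point is ARRDC4 after TN with the block, at 1.18, and the intervals of the OA changes all cover 0.

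The stressors were not shown to differ in their effect on any of these genes. The OA change minus the TN change, tested as a contrast over all 12 libraries, was -0.83 for ARRDC4 (SE 0.853, 95% confidence interval -2.69 to 1.03), 0.58 for MLXIP (SE 0.517, 95% confidence interval -0.545 to 1.71), and 0.03 for MLX (SE 0.277, 95% confidence interval -0.574 to 0.633), each with an edgeR adjusted p of 1. No gene of the 15429 passed this test (0%), with 348 at an unadjusted p under 0.05, and DESeq2 also called 0. With replicate numbers as a block within each experiment, the ARRDC4 difference was -0.96 (unadjusted p = 0.00795, adjusted p = 0.921), again with 0 genes called. The rise of ARRDC4 after TN and the lack of a call after OA are therefore separate results, and a difference between the stressors was not shown.

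Levels were compared between genes after division by transcript length. Here the CPM were scaled by TMM over all 12 libraries together. MLX had the highest level in all 4 groups, at 23.1 ± 3.10 to 30.4 ± 3.19 CPM per kilobase (mean ± SD, n = 3). ARRDC4 had 3.03 ± 0.558 in the DMSO libraries of OA, 3.58 ± 0.737 after OA, 5.15 ± 3.47 in the DMSO libraries of TN, and 10.8 ± 6.23 after TN. MLXIP had 2.47 ± 0.725, 2.52 ± 0.550, 1.89 ± 0.794, and 1.29 ± 0.495 in the same order. MLX thus lay above both other genes by more than the spread in every group. ARRDC4 and MLXIP lay within the sum of their SDs in the OA experiment and in the DMSO libraries of TN, but not after TN. For ARRDC4 the order of the groups, from low to high, was DMSO of OA, OA, DMSO of TN, and TN, and no neighbours in this order were separated by more than their SDs. The DMSO groups came from separate experiments, so their difference cannot be told apart from the experiment.

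In the TN experiment, the level of ARRDC4 moved with the GC skew of a library and that of MLXIP moved the other way. In the OA experiment this held for MLXIP, whereas ARRDC4 was lowest among OA libraries in replicate 3 (-0.33), whose skew was -0.029. The longest annotated transcript of each gene has a GC content of 43.4% for ARRDC4, 57.8% for MLXIP, 51.8% for MLX, and 43.8% for TXNIP. The 2 TN-experiment libraries with the most negative skew had ARRDC4 at -1.74 and -1.33 from the group mean (log2) and MLXIP at 0.64 and 0.57. The OA-experiment libraries numbered 2, with a skew of -0.69 and -0.97, had MLXIP at 0.40 and 0.34 above the group mean and ARRDC4 at -0.28 and 0.05. MLX stayed within 0.22 of its group mean in all 12 libraries. The part of the GC skew in the unpaired spread was not tested, and with a GC offset alone ARRDC4 after TN was at 1.14 (SE 0.617, edgeR adjusted p = 0.226).

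**Figure D3:**
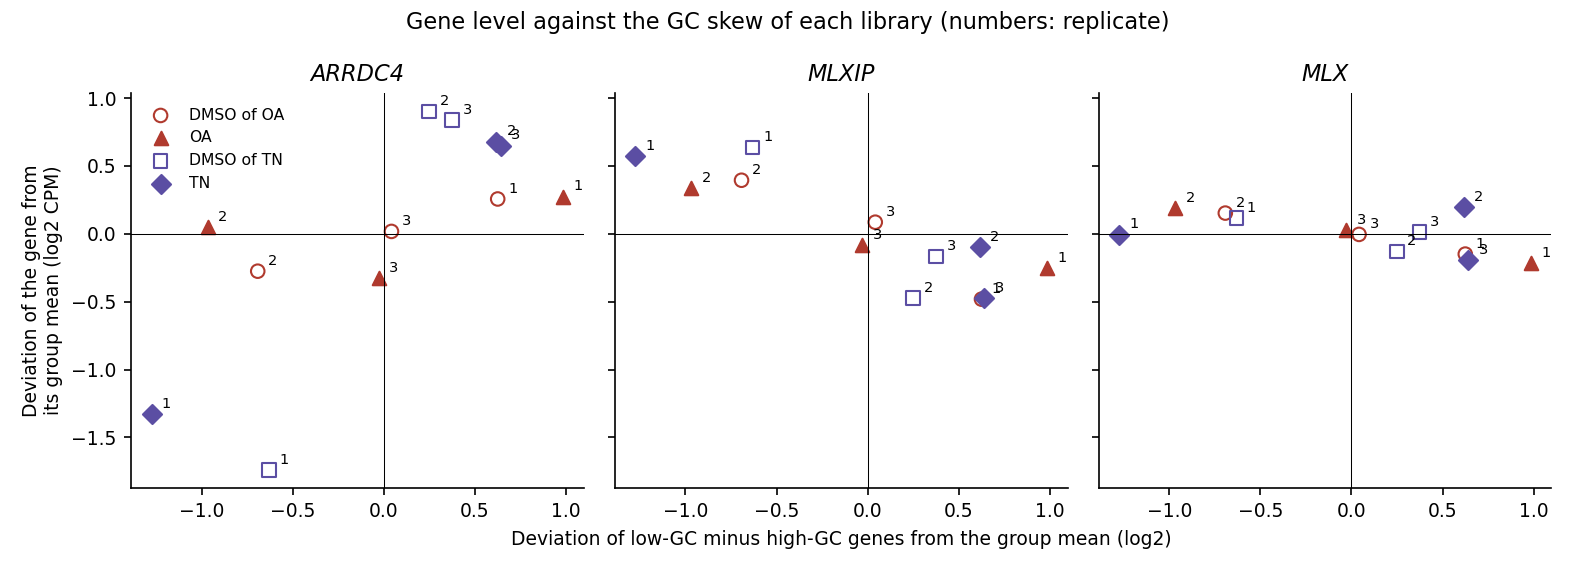
Deviation of ARRDC4, MLXIP, and MLX from the group mean (y axis, log2 CPM) against the GC skew of each library (x axis, log2), with a symbol for each group and the replicate number beside each point. The libraries numbered 1 of the TN experiment lie at the lower left for ARRDC4, at -1.74 and -1.33, and at the upper left for MLXIP, at 0.64 and 0.57.

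Genes whose pattern was most like that of each gene were ranked by the root mean square difference of log2 CPM over the 12 libraries, with levels set against the mean of the own DMSO libraries, among 14070 genes. The closest to ARRDC4 were CCDC122 (0.288), DGKE (0.361), LINC02008 (0.365), ERAP1 (0.397), and SLC46A3 (0.424), against a median of 1.16 over all genes. The GC content of these 5 genes ran from 37.9% to 42.3%, against 43.4% for ARRDC4. None of them was called for OA or TN without the block, and neither was ARRDC4. Their log2 fold changes after TN ran from 0.65 (LINC02008) to 1.13 (CCDC122), against 1.01 for ARRDC4. A rise of this size after TN was thus not particular to ARRDC4, although the ranking itself uses these values. The closest to MLXIP were PRPF8, SMTN, and HOXC9 (0.172 to 0.188, median of all genes 0.747), and those to MLX were BIN3, DYNLT1, and SART3 (0.086 to 0.097, median of all genes 0.600). These are descriptions over 12 libraries, and all genes compared take the depth and GC skew of each library.

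The wider transcription factor network, in which MLX and MAX are the shared partners, had 10 genes with enough counts. For OA, 1 of 10 was higher and 0 lower, against 4.48% of all genes called (median log2 fold change 0.36, against -0.022 over all genes tested). For TN, 2 were higher and 1 lower, against 6.99% (median 0.35, against -0.031), and with the replicate block 4 were higher and 2 lower, against 27.1%. MYCN had too few counts to be tested. MXD1, a repressor that pairs with MAX and opposes MYC, was at 0.694, 1.87, and 2.41 CPM in DMSO and 9.38, 18.7, and 6.0 CPM after OA, and it was at 2.77, 3.82, and 2.47 CPM in DMSO and 6.43, 11.1, and 9.37 CPM after TN. The treated libraries lay above their DMSO libraries without overlap in both experiments, and MXD1 rose by 2.88 log2 units for OA (edgeR adjusted p = 0.0396) and 1.55 for TN (adjusted p = 0.0272).

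MYC, the growth-promoting partner of MAX, fell by 1.19 log2 units after TN (edgeR adjusted p = 0.0292). It was at 259.8, 197, and 189 CPM in DMSO and at 109, 91.2, and 79.5 CPM after TN, with no overlap. After OA, the log2 fold change of MYC was -0.65 (adjusted p = 0.196). MYCL, a MYC paralog, was at 10.6, 7.26, and 6.43 CPM in DMSO and 22.0, 17.7, and 20.6 CPM after TN, a rise of 1.33 log2 units (adjusted p = 0.0303), and its value after OA was 1.50 (adjusted p = 0.0619). MLXIPL, which encodes the MondoA paralog ChREBP, was at 4.48 to 11.97 CPM in all libraries, with log2 fold changes of 0.75 for OA (adjusted p = 0.243) and 0.44 for TN (adjusted p = 0.448). With the replicate block, MXD4 (1.54, adjusted p = 0.000786), MXI1 (0.96, adjusted p = 0.00762), and MXD3 (-1.12, adjusted p = 0.0184), all MAX-binding repressors, were also called for TN.

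Other arrestin genes were not called in the fits without a block, with 0 of 5 tested for either stressor (median 0.26 for OA and 0.27 for TN). Of all genes, 4.48% and 6.99% were called, so that a count of 0 among 5 is near the background. ARRDC1, an alpha-arrestin that functions in vesicle budding, was at 17.8, 27.1, and 21.1 CPM in DMSO and 26.6, 41.3, and 35.5 CPM after OA. Its log2 fold change was 0.74 for OA (edgeR adjusted p = 0.186) and 0.61 for TN (adjusted p = 0.208). With the replicate block, given here for TN and further below for OA, the TN value of ARRDC1 passed (adjusted p = 0.0226). ARRDC3, another alpha-arrestin, had 1.01 for OA (adjusted p = 0.195) and 0.27 for TN (adjusted p = 0.735). ARRDC5 was listed at 0.

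In the thioredoxin system, whose central protein is bound by TXNIP, TXNRD1 was the 1 called gene of 5 under each stressor, against 4.48% (OA) and 6.99% (TN) of all genes. TXNRD1, the cytosolic thioredoxin reductase, was at 681, 719, and 669.7 CPM in DMSO and 1859, 1743, and 1498 CPM after OA, a rise of 1.38 log2 units (edgeR adjusted p = 0.0219). It was at 634, 647, and 665 CPM in DMSO and 879.7, 1544, and 1537 CPM after TN, a rise of 1.01 (adjusted p = 0.0415), with the lowest TN value in replicate 1. TXN, thioredoxin itself, had log2 fold changes of 0.10 for OA (adjusted p = 0.835) and -0.28 for TN (adjusted p = 0.435). The medians of the list were -0.19 for OA and -0.20 for TN.

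Among 7 genes of glucose entry and glucose-6-phosphate use, which set the signal that MondoA senses, 1 rose for each stressor, while none fell without the block (medians 0.19 for OA and -0.22 for TN), against 4.48% and 6.99% of all genes called. SLC2A3, the high-affinity glucose transporter GLUT3, was at 6.25, 8.09, and 6.11 CPM in DMSO and 32.6, 32.6, and 27.3 CPM after OA. In the TN experiment, it was at 2.27, 4.53, and 3.74 CPM in DMSO and 10.0, 16.2, and 14.1 CPM after TN. All treated libraries were above all of their DMSO libraries, and SLC2A3 rose by 2.25 log2 units for OA (edgeR adjusted p = 0.0142) and 1.92 for TN (adjusted p = 0.0198).

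SLC2A1, the main glucose transporter GLUT1, had opposite signs under the stressors. It was at 138, 123, and 169 CPM in DMSO and 186, 244, and 197 CPM after OA (log2 fold change 0.63, edgeR adjusted p = 0.187), and at 126, 134, and 119.6 CPM in DMSO and 104, 100.5, and 97.2 CPM after TN (-0.32, adjusted p = 0.343). Treated and DMSO libraries did not overlap in either experiment, but neither change passed. The difference of the changes was 0.88 (SE 0.264, unadjusted p = 0.00617, adjusted p = 1). With the replicate block, GPI, which interconverts glucose-6-phosphate and fructose-6-phosphate (-0.48, adjusted p = 0.0371), and PFKFB3, a regulator of glycolytic flux (-0.60, adjusted p = 0.0321), were also called for TN, in a fit that called 27.1% of all genes.

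Of 10 genes known in other tissues as targets of the carbohydrate response, 8 could be tested, and 1 rose for OA and 2 for TN (medians 0.25 and -0.14), against 4.48% and 6.99% of all genes called. PKLR and G6PC1, typical of liver, had too few counts. RGS16, a regulator of G protein signalling, was at 8.28, 10.9, and 10.6 CPM in DMSO and 38.9, 73.6, and 45.3 CPM after OA, a rise of 2.51 log2 units (edgeR adjusted p = 0.0168). It was at 8.58, 11.1, and 10.3 CPM in DMSO and 56.0, 24.2, and 33.6 CPM after TN, a rise of 1.95 (adjusted p = 0.0265), and neither experiment had overlapping groups. ME1, the cytosolic malic enzyme, rose by 0.82 after TN (adjusted p = 0.0431) and had 1.17 for OA (adjusted p = 0.0831). The lipogenic enzyme genes ACACA, ACLY, FASN, SCD, and ELOVL6 were not called without the block. ACLY, ATP citrate lyase, had -0.60 for OA (adjusted p = 0.313) and -0.73 for TN (adjusted p = 0.277). With the block, given here for TN and further below for OA, the TN value of ACLY was called (-0.76, adjusted p = 0.00470).

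None of the 11 kinase and ubiquitin ligase genes whose products act on TXNIP protein was called for OA or TN, with or without the block for TN (medians 0.083 and 0.11), against 4.48% and 6.99% of all genes, and 27.1% with the block. These include subunits of AMP-activated protein kinase, which marks TXNIP for degradation, and the ligase gene ITCH. The lowest p-values belonged to AKT1, a kinase of insulin signalling, for OA (-0.49, edgeR adjusted p = 0.278), and to NEDD4L, a ubiquitin ligase, for TN (-0.37, adjusted p = 0.308). Of the 20 genes with the tandem motif in a promoter window, TXNIP among them, 14 could be tested for OA and 13 for TN, and GFPT1 was the 1 called gene in each (1.41, adjusted p = 0.0471, and 1.55, adjusted p = 0.0320). A single call among 14 or 13 is near the 4.48% and 6.99% of all genes called. With the replicate block, 3 of the 13 were higher and 2 lower after TN, against 27.1% of all genes called. Besides GFPT1 (1.51, adjusted p = 0.000575), these were MYL5 (1.062, adjusted p = 0.0161), P4HA1 (0.69, adjusted p = 0.0421), HPF1 (-0.90, adjusted p = 0.00808), and RAN (-0.845, adjusted p = 0.00165), which were also named after their values were seen. GFPT1, the first enzyme of the hexosamine pathway, was likewise named after its values were seen, and the medians of the genes tested were 0.11 and 0.029.

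**Figure D4:**
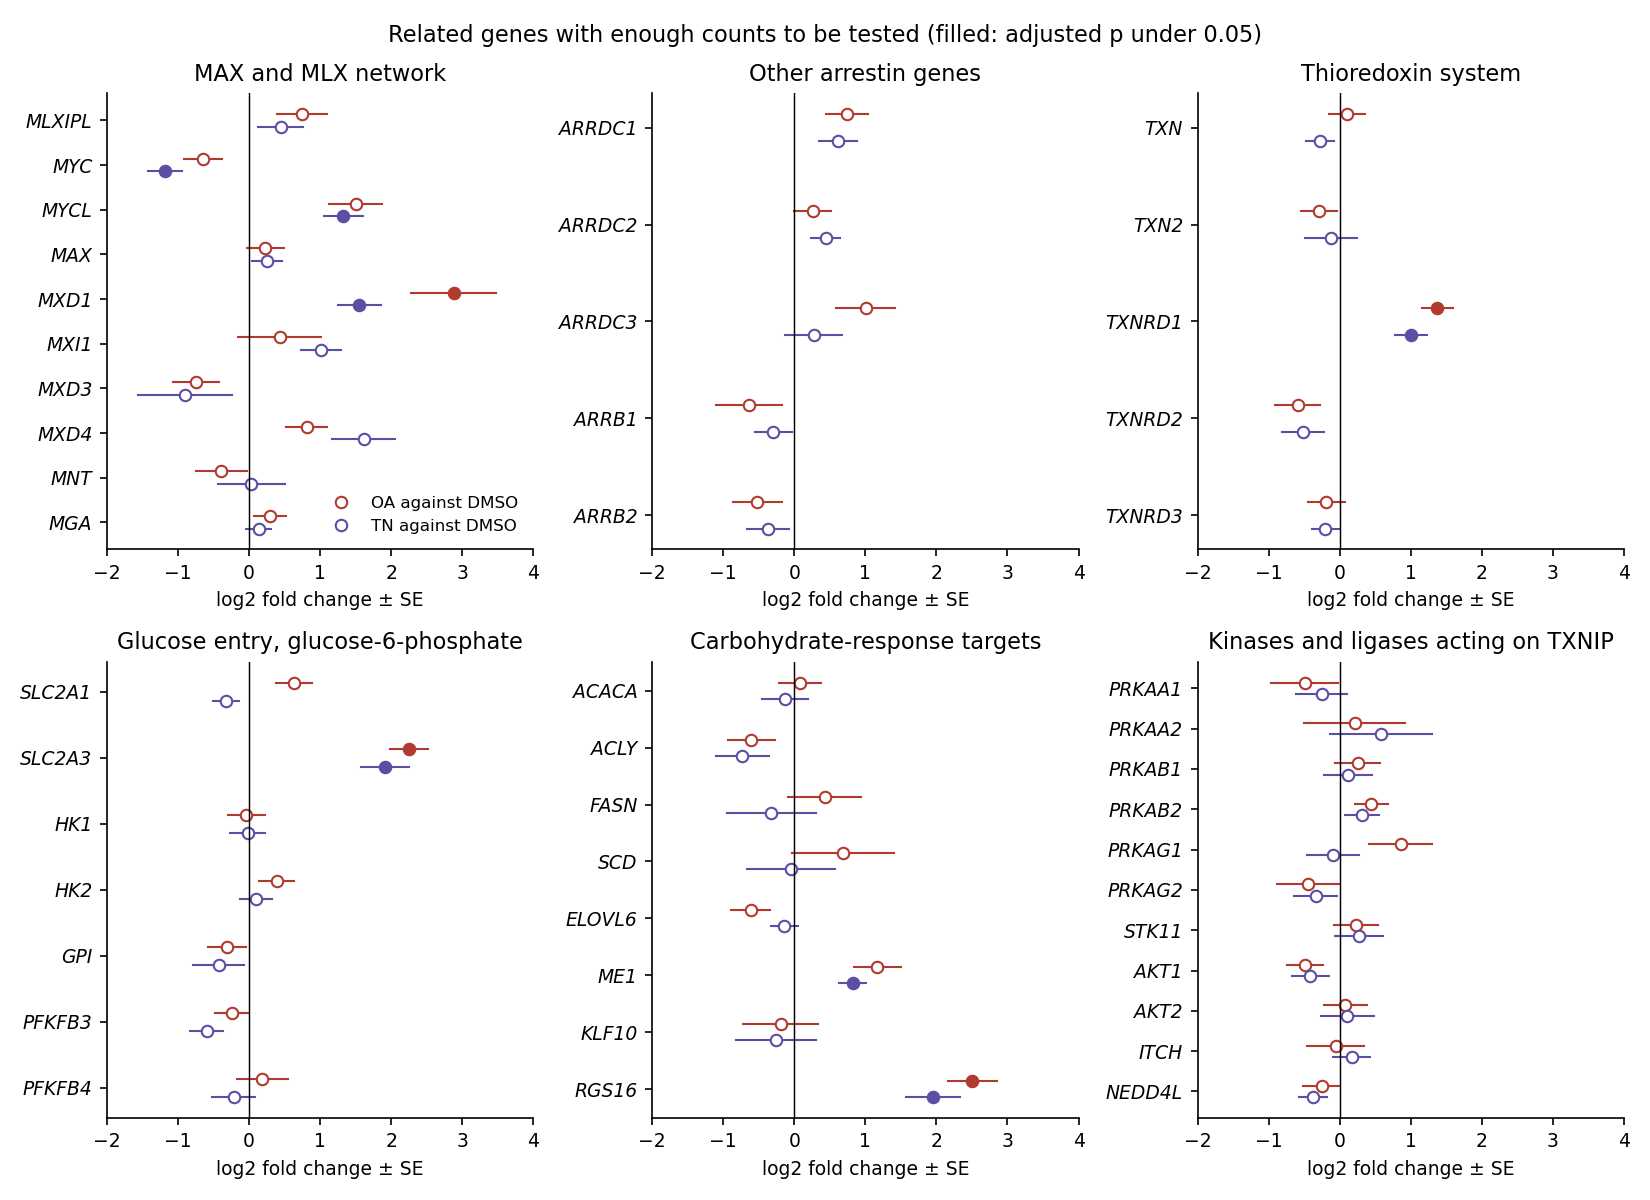
Log2 fold changes ± SE (x axis) after OA (red) and TN (purple) for the genes of 6 related lists that had enough counts (y axes), with filled points for an adjusted p under 0.05 without a replicate block. Filled points for both stressors are seen for MXD1, TXNRD1, SLC2A3, and RGS16, for TN alone for MYC, MYCL, and ME1, and none among the arrestin genes and the kinases and ligases.

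The calls of these related genes depended on which libraries were present. Leaving GFPT1 aside, the 4 OA calls held without OA replicate 1 or 2, where MXD1 was at 3.03 and 2.23. Leaving out any 1 of the DMSO libraries of OA ended the OA calls of MXD1, TXNRD1, SLC2A3, and RGS16, with adjusted p up to 0.161 in edgeR and log2 fold changes that stayed at 2.55 to 3.24, 1.35 to 1.44, 2.17 to 2.42, and 2.43 to 2.59. Leaving out OA replicate 3 also ended those of MXD1 (3.18), TXNRD1 (1.45), and RGS16 (2.60), with edgeR adjusted p of 0.0518 to 0.0677. Leaving out both libraries numbered 2 ended that of MXD1 (2.34, adjusted p = 0.0699). It kept those of TXNRD1 (1.34), SLC2A3 (2.31), and RGS16 (2.19). Leaving out both numbered 1 ended the OA calls of MXD1 (2.69, adjusted p = 0.0773), TXNRD1 (1.37, adjusted p = 0.0895), and SLC2A3 (2.22, adjusted p = 0.0543) and kept that of RGS16 (2.62, adjusted p = 0.0460). MYCL passed for OA without OA replicate 1 (adjusted p = 0.0485), and MYCL and ME1 each passed for OA in 7 of the 12 other alternatives, DESeq2 among them (adjusted p = 0.00604 and 0.0235). With the GC offset, ME1 was at 1.82 for OA (edgeR adjusted p = 0.0450), against 1.17 in the main fit. For TN, leaving out DMSO replicate 2, DMSO replicate 3, or TN replicate 3 ended all 7 calls other than GFPT1 (adjusted p up to 0.227), and leaving out DMSO replicate 1 or TN replicate 2 ended 6 of the 7, keeping MYCL and RGS16, respectively. In the fits that ended them, the log2 fold changes stayed at 1.40 to 1.77 for MXD1, 0.89 to 1.04 for TXNRD1, 1.68 to 2.16 for SLC2A3, 1.81 to 2.01 for RGS16, -1.29 to -1.06 for MYC, 1.17 to 1.44 for MYCL, and 0.73 to 0.83 for ME1. Without both TN-experiment libraries numbered 1, these 7 TN calls held, at 1.67 for MXD1, 1.22 for TXNRD1, 1.85 for SLC2A3, 1.42 for RGS16, -1.19 for MYC, 1.46 for MYCL, and 0.93 for ME1 (adjusted p at most 3.09e-05). They also held without TN replicate 1 and with the replicate block, and no sign changed in any of these fits. The OA call of GFPT1 was lost on leaving out any 1 library (1.27 to 1.67, edgeR adjusted p = 0.0530 to 0.219), both numbered 1 (1.50, adjusted p = 0.0927), or both numbered 2 (1.15, adjusted p = 0.0812), and its value was 2.04 with the GC offset (adjusted p = 0.0117). Its TN call was lost on leaving out any 1 library (1.38 to 1.71, adjusted p = 0.108 to 0.143) but TN replicate 1 (1.86, adjusted p = 0.00150), and held without both numbered 1 (1.72, adjusted p = 9.54e-15).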

How the data were processed

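RNA-seq of HCT116 cells after 24 h of OA, TN, or DMSO was analysed from gene tables. The authors aligned reads to hg38 with STAR, used the same tool to count reads over Gencode genes, and deposited the raw counts. Counting by STAR leaves out reads that map to several places or overlap several genes, which can lower or empty a gene's count. The labels name a stranded total RNA kit, the paper describes mRNA-seq, and the strand column is not given in the sources used here. The deposited tables of the authors' DESeq2 comparisons hold fold changes and p-values and were not used. No column was left unassigned.

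Genes that passed filterByExpr were compared in edgeR 4.0.16 (R 4.3.3) by its two-sided quasi-likelihood test after TMM, for OA and TN separately and for the difference over 12 libraries. The Benjamini-Hochberg method was applied to all genes tested, with calls at an adjusted p under 0.05. The SE is the log2 fold change over the square root of F. p-values measure the spread between libraries labelled as biological replicates. In bulk RNA, less RNA per cell and fewer cells of a kind cannot be told apart. Levels of the glucose-sensing genes and related genes are CPM after TMM over 12 libraries, log2 values carry a prior count of 2, and intervals are at 95%. The TXNIP floors, the cell-type markers, the elongation factor genes, and the neighbours of TXNIP are in CPM of total counts. Gene positions and lengths follow Gencode v44 on hg38, and promoters follow RefSeq. Transcripts were aligned with minimap2. The gene version of MLXIP in the tables is older than in v44. TN replicate numbers were taken as pairs from the deviation check. In no pair of a group did counts agree within sampling noise (lowest chi-square per gene 6.25).

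The members and lists were chosen with earlier results of these data known, and 1 further gene of glucose use was left out of the lists and is not reported here. Named are every called gene of a list, the 3 genes with the lowest p per comparison where a result turns on them, and MLXIPL, MYC, SLC2A1, and SLC2A3. The alternatives were DESeq2 1.42.0, other scalings and filters, a replicate block, GC offsets, 1 fit of all libraries, and leaving out libraries. On simulated counts, the test recovered 15% (OA) and 12% (TN) of genes changed 2-fold, and 82% and 91% of those changed 4-fold. Libraries were simulated as independent, without GC skew or pairs, and the changed genes were well counted. The recovery thus does not describe the fit with the replicate block or genes of unusual spread.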

Additional observations from a re-analysis of the deposited data

How the results depend on the processing

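ARRDC4 rested on 84 to 666 counts per library, and TXNIP, with none, could not be assessed at any setting. The number of genes called for OA was 658 (405 higher, 253 lower). It was 1630 with DESeq2, 1425 with ACTB scaling (1341 higher, 84 lower), 1572 without a filter, 2406 with the GC offset, 3792 with the replicate block and GC offset together, 1681 in 1 fit of all 12 libraries, and 52 without both libraries numbered 1. Scaling to total counts split the OA calls into 352 higher and 395 lower. For TN it was 1009 (527 higher, 482 lower). It was 1737 with DESeq2, 1648 without a filter, 3219 with the GC offset, 5403 with the block and GC offset together, and 6267 without both libraries numbered 1, an alternative chosen after seeing the data, as was leaving out both libraries numbered 1 or 2 for OA. Total counts split the TN calls into 529 and 875, and ACTB scaling into 1198 and 220. The difference of the stressors gave 0 calls in the main test, 25 without a filter, 1 with the GC offset, and 6 with the block and GC offset together.

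With the replicate block, 3914 genes were called for OA (1713 higher, 2201 lower) and 3915 for TN (1705 higher, 2210 lower). For OA, same-numbered libraries correlated at 0.627, 0.542, and 0.091, so the numbers were not taken as pairs, and DMSO replicate 3 correlated better with OA replicate 1 (0.153). The block made ARRDC4 after TN pass (1.18) and changed no other call of the 3 genes with counts. Among related genes, the OA block added calls of MYCL (1.42), MXD4 (0.81), MXD3 (-0.79), ARRDC1 (0.72), ARRDC3 (0.94), ACLY (-0.60), ELOVL6 (-0.64), and ME1 (1.09), and of HSPBAP1 (0.67), MYL5 (0.88), HPF1 (-1.62), and RAN (-0.845) among genes with the tandem motif (3 higher and 2 lower of 14 with GFPT1), with adjusted p of 0.00296 to 0.0487, against 26.7% of all genes called.

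ARRDC4 after TN also passed with the block and GC offset together (1.28) and without both libraries numbered 1 (0.99), and it stayed positive in all alternatives. These and the block alone were the 3 passes among 11 alternatives other than leaving out 1 library. ARRDC4 did not pass in the rest, DESeq2 among them, nor on leaving out any 1 library. MLXIP after TN passed only with the block and GC offset together (-0.62). MLXIP after OA changed sign with total counts (-0.12), the GC offset (-0.013), and the block with GC offset (-0.0055). MLX changed sign with ACTB scaling, to 0.37 for OA and 0.13 for TN, and for OA without both libraries numbered 1 (0.0024). In all of these, the cause was not tested. The TN calls of MXD1, TXNRD1, and ME1 were lost with total counts (1.42, 0.89, and 0.68), those of MXD1 and ME1 in 1 fit of all 12 libraries (1.57 and 0.83), and that of ME1 without a filter (0.79). Those of GFPT1 were lost with total counts for OA (1.19) and TN (1.44), and with ACTB scaling for TN (1.89). The median change over all genes went to -0.23 (OA) and -0.18 (TN) for total counts and 0.42 and 0.30 for ACTB.

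Leaving out 1 library at a time gave 3 (without DMSO replicate 2 or 3) to 1179 (without OA replicate 1) calls for OA, with 5 without DMSO replicate 1 and 91 without OA replicate 3. For TN it gave 151 (without DMSO replicate 3) to 2361 (without TN replicate 1), with 473 and 183 without DMSO replicates 1 and 2, and 301 and 310 without TN replicates 2 and 3. For the difference it gave 0 to 4, the latter without OA replicate 2. A group left with 2 libraries borrows the spread of the others. In these fits, MLXIP after OA ran from -0.14 to 0.36, MLX after OA from -0.25 to 0.04, and the MLX difference from -0.073 to 0.19.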
